A study of Homo sapiens with 6 samples.

Results

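Chromosome 8 was examined as a set of accessible regions: every interval on chromosome 8 (GRCh38) in the ATAC-seq peak lists of 6 libraries of U937 cells, a widely used human cell line with monocyte features that was grown from a lymphoma. ATAC-seq uses a transposase that inserts sequencing adapters into open DNA, and a peak is a stretch where insertions pile up over the local background. The members were 858 peaks of 41594 in all lists together, those on unplaced sequences included, and they came from 1112 lines, since a peak with several summits fills several lines. They were chosen by position alone among the intervals that the authors' peak caller had kept, so a peak's own call is not a result here.

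The ΔNSPs libraries came from 3 independent clones, named ΔNSPs, in which the neutrophil serine proteases CTSG, ELANE and PRTN3 had been depleted together. The 3 control lines had received control plasmids. Cells of both groups were selected with 500 µg/ml geneticin, treated with 200 units/ml DNase at 37 °C for 30 minutes, washed and cryopreserved in a medium with 5% DMSO. Each library is 1 line or clone, so a difference between clones has no replicate. In a bulk library, a site open in fewer cells and a site less open in each cell cannot be told apart. The number of copies of the chromosome in each line was not measured here.

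Chromosome 8 carries a gene-poor body and a short, very gene-dense stretch at the end of its long arm. It holds the defensin clusters of the short arm, which encode antimicrobial peptides of neutrophils and epithelia, and MYC, a transcription factor that drives growth and is active in many leukaemias. Open chromatin in a growing cell line is normally found at the starts of active genes, at enhancers inside and between genes, and at boundary elements.

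Some facts of the whole series bear on every value below. On chromosomes 1-22, X and Y the lists held 14262, 24981 and 2188 peaks in clones 1, 2 and 3, and 13, 4 and 2 in control lines 1, 2 and 3. The lists carry no read totals, and the sequencing depth of each library is therefore unknown. Peak names were numbered without a break in every list, up to 14280, 25052 and 2200 in clones 1, 2 and 3. Of 14 monocytic marker genes, 6 (CD14, CD33, CD68, CEBPA, CSF1R and ITGAM) had a peak within 1000 bp of a gene end in at least 1 clone and 2 had it in at least 2 clones. Erythroid and hepatocyte markers had none of 5 each, B cell markers 1 of 5, and T cell and neuronal markers 2 of 5 each. SPI1, MPO and LYZ were among the 8 monocytic markers without such a peak. Of all 19974 protein-coding genes, 23.3% had such a peak in at least 2 clones and no control line. Of those on chromosomes other than 8, 53.2% had none in any clone. The monocytic counts were therefore not above those of genes in general.

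Chromosome 8 carried peaks in every ΔNSPs clone and in only 1 control line. Clones 1, 2 and 3 had 603, 204 and 50 peaks on it, and control lines 1, 2 and 3 had 1, 0 and 0. In total length this was 194, 22.7 and 8.57 kb of clones 1, 2 and 3, and 0.116 kb of control line 1. The groups did not overlap. The difference between the clone mean and the control mean was 2.17 on the scale of log10(peaks + 1), with an exact two-sided permutation p = 0.1, the smallest that 3 libraries against 3 can give. The covered length gave the same p. The control lists were short in all, and the share of peaks that lay on chromosome 8 was 2.44 ± 1.71% in the clones and 2.56 ± 4.44% in the control lines (SD, n = 3 each), where the control mean comes from 1 of 13 peaks of control line 1. The short control lists leave nothing else on chromosome 8 to compare between the groups, so the rest of the results is about how the clones differ among themselves.

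The single control peak lay at PLEKHF2, which encodes an endosomal protein that binds phosphoinositides. A clone 1 peak beside it, at chr8:95133778-95133916, had a fold enrichment over the local background of 3.92 and a −log10 q of 8.32. The control peak, at chr8:95133643-95133758 in control line 1, had a fold of 2.78 and a −log10 q of 2.34. The fold enrichment and the −log10 p and q of a peak are the authors' own values. These peaks did not overlap. Their implied pile-ups, the read counts at the summit solved from the fold and the −log10 p, were 35 reads in clone 1 and 35 reads in control line 1, over backgrounds of 8.19 reads in clone 1 and 11.9 reads in control line 1. Clones 2 and 3 had no peak near the gene.

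The clone with the longest list had few peaks on chromosome 8. Chromosome 8 took 4.23, 0.817 and 2.29% of the peaks of clones 1, 2 and 3. It holds 3.58% of the protein-coding genes and 4.79% of the sequence of chromosomes 1-22 and X. Clone 2 had 0.338 times as many peaks as clone 1 on chromosome 8, but 1.81 times as many on the other chromosomes together. Among those other chromosomes the ratio of clone 2 to clone 1 ranged from 0.840 on X to 6.69 on 21, with a median of 1.64. Chromosome 8 had the lowest ratio of the 23. The ratio of clone 3 to clone 1 was 0.0829 on chromosome 8, the fourth lowest of the 23, against a median of 0.118 on the others and 0.0220 on X.

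Set against gene content, chromosome 8 stood near opposite ends of the order in clones 1 and 2. It had 0.843 peaks per protein-coding gene in clone 1, the fourth highest of 23 chromosomes, where the median of the others was 0.719. In clone 2 it had 0.285 peaks per gene, the lowest of the 23, where the others ranged from 0.315 on X to 3.39 on 21 with a median of 1.11. Clone 3 had 0.0699 peaks per gene on chromosome 8, against a median of 0.0821 on the others. In peaks per Mb, chromosome 8 had 4.16, 1.41 and 0.345 in clones 1, 2 and 3, and the other chromosomes together had 4.73, 8.59 and 0.741. The log2 ratio of chromosome 8 to the rest was −0.19, −2.61 and −1.10 in clones 1, 2 and 3. It was below 0 in 3 of 3 clones, with a mean of −1.30 ± 1.22 (SD, n = 3) and an exact two-sided sign-flip permutation p = 0.25, the smallest that 3 clones allow. Without clone 2 the mean was −0.65. Counted per gene in place of per Mb, the mean over the 3 clones was −0.86 and clone 1 lay above the other chromosomes.

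**Figure D1:**
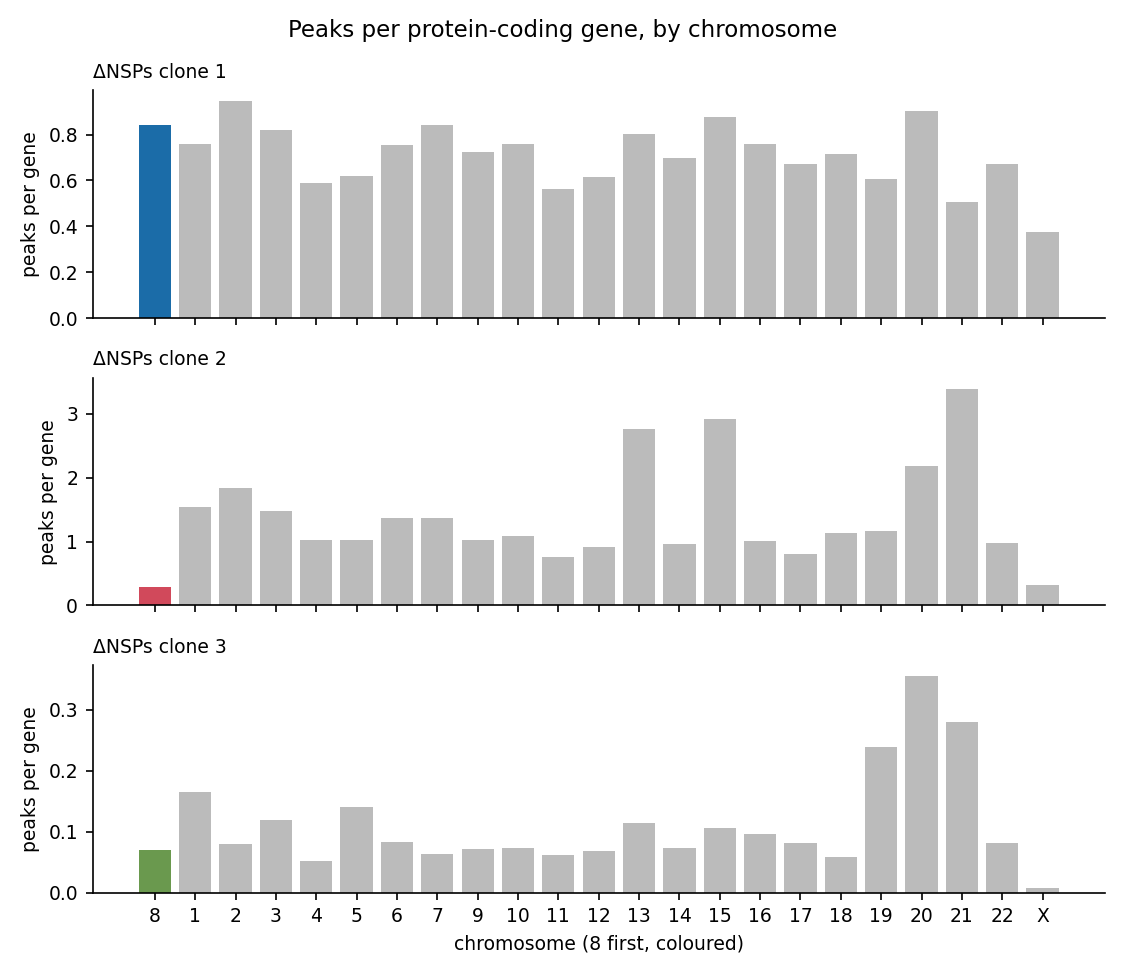
Peaks per protein-coding gene (vertical axis, a scale of its own in each panel) on each of 23 chromosomes, with chromosome 8 first and coloured, in ΔNSPs clones 1, 2 and 3; each bar is 1 library. Chromosome 8 stands at 0.843 in clone 1, among the higher bars, at 0.285 in clone 2, the lowest bar, and at 0.0699 in clone 3.

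The low number of clone 2 peaks ran along the whole of chromosome 8. The chromosome was divided into 15 bins of 10 Mb from the end of the short arm, the last bin being 5.06 Mb long. Clone 2 had fewer peaks than clone 1 in 15 of the 15 bins, with ratios of 0.0323 to 0.603 and a median of 0.277. On the other chromosomes, 267 bins had at least 10 peaks in clone 1, and 13 of them (4.87%) had fewer peaks in clone 2 than in clone 1. Their median ratio was 1.61. Of those 267 bins, 7 had a ratio at or below the highest of chromosome 8.

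Within chromosome 8 the distal long arm was the emptiest in clone 2. Bins 12 to 14 held 7 peaks in clone 2 and 66 in clone 1, a ratio of 0.106, and 4 in clone 3. Bin 13 had 1 peak in clone 2 and 31 in clone 1. The ratio was highest in bins 3 and 8, at 0.603 and 0.600, and it varied between neighbours, being 0.536 in bin 1 and 0.275 in bin 2. The last bin had 42 peaks in clone 2 and 131 in clone 1, a ratio of 0.321.

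The longest stretch without a peak was then taken in each clone. It was chosen for holding no peak of its own clone, so the counts of the other clones inside it are a description only. In clone 2 it was 11.8 Mb long, at chr8:116272831-128049299, from 369299 bp outside EIF3H, a translation initiation factor subunit, to 306348 bp beyond MYC. It contained 49 protein-coding genes. Clone 1 had 35 peaks in that stretch, with gene-end peaks at 22 of the 49 genes, and clone 3 had 1 peak. In clone 3 the longest empty stretch was 14.5 Mb long, from within CSMD3 to 377715 bp from POU5F1B, and clone 1 again had 35 peaks inside it while clone 2 had 1. In clone 1 the longest was 4.39 Mb, from 1065364 bp outside KCNV1 to within TRPS1, and held 1 protein-coding gene, 2 peaks of clone 2 and 1 of clone 3. The median distance between neighbouring peaks was 63.5, 171 and 924 kb in clones 1, 2 and 3.

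In spite of the difference in number, the 3 clones filled the chromosome in a similar pattern. The last bin held the most peaks in each of the 3 clones, 131, 42 and 14 in clones 1, 2 and 3, which is 21.7, 20.6 and 28.0% of each clone's peaks on the chromosome. The last bin is also the most gene-dense, with 105 of the 715 protein-coding genes (14.7%) and 20.8 genes per Mb. Bin 3 came second in every clone, with 63, 38 and 8 peaks in clones 1, 2 and 3, and bin 11 came next, with 59, 25 and 6. Bin 1 differed: it has 82 protein-coding genes, among them the defensin clusters, but held 28, 15 and 0 peaks in clones 1, 2 and 3. Over the 15 bins, peaks per Mb and genes per Mb had a Spearman rho of 0.757, 0.732 and 0.271 in clones 1, 2 and 3 (Pearson r 0.950, 0.941 and 0.915). Without the last bin, r was 0.607, 0.688 and 0.330 over 14 bins, so much of r rested on it. These are descriptions over bins of a single chromosome, whose peaks share their libraries.

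**Figure D2:**
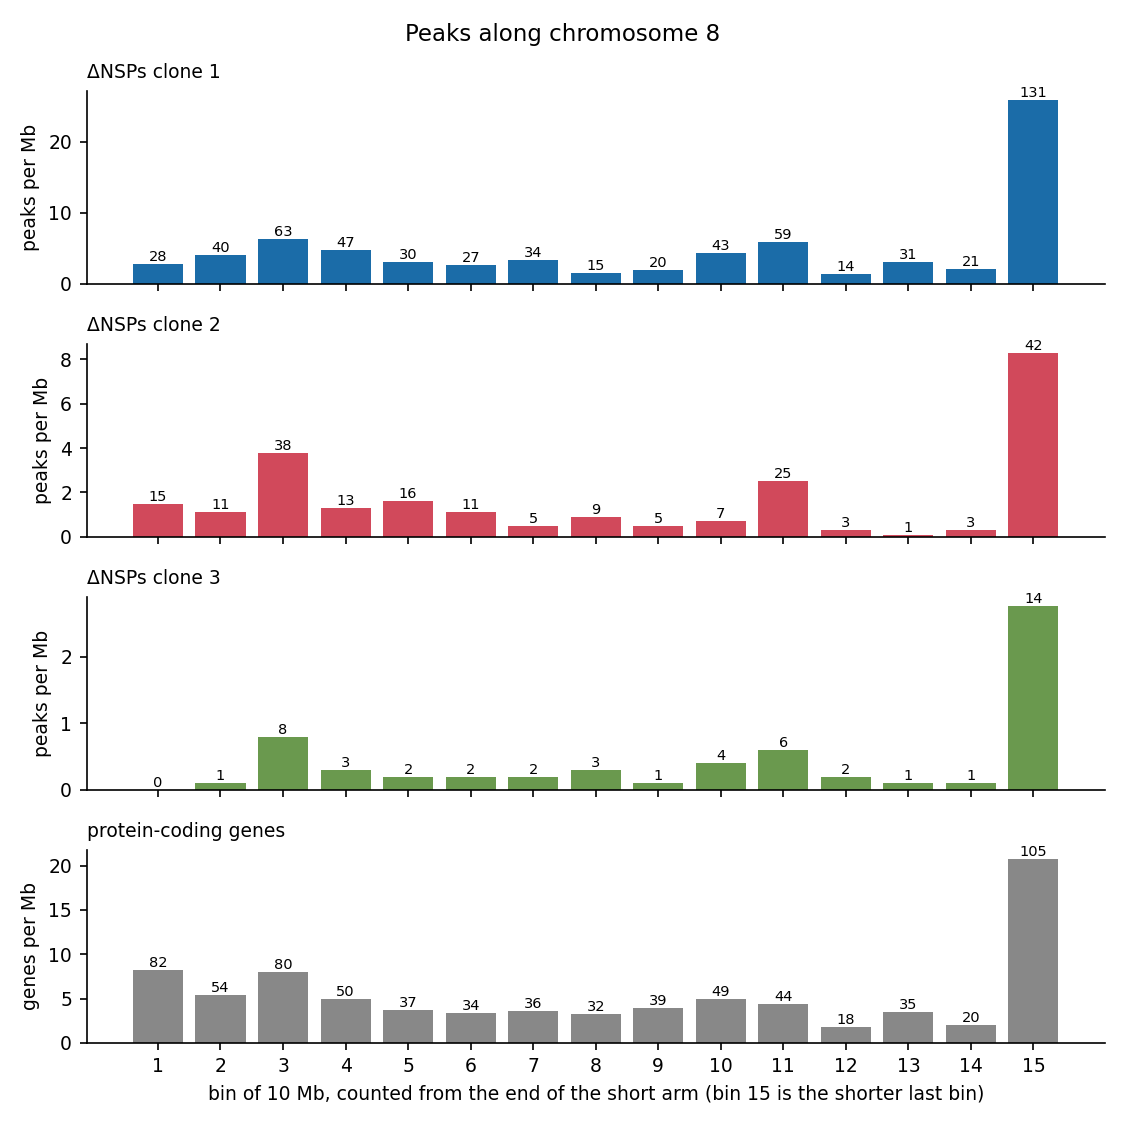
Peaks per Mb in each 10 Mb bin of chromosome 8 in ΔNSPs clones 1, 2 and 3 (upper panels, each with a scale of its own) and protein-coding genes per Mb (lowest panel); the number over a bar is the count of peaks or genes. Bins 3, 11 and 15 stand out in each clone, and bins 12 to 14 hold 3, 1 and 3 peaks in clone 2.

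By position, gene ends held fewer summits on chromosome 8 than elsewhere in each clone. A gene end is a window of 1000 bp either side of the start or the end of a protein-coding gene, because strand was not used for this chromosome. Of the summits on chromosome 8, 276 of 603 (45.8%, exact Clopper-Pearson 95% interval 41.7 to 49.8) lay at a gene end in clone 1, 42 of 204 (20.6%, 15.3 to 26.8) in clone 2 and 21 of 50 (42%, 28.2 to 56.8) in clone 3. These intervals cover counting error only. On the other chromosomes the shares were 51, 23.1 and 46.8% in clones 1, 2 and 3. The difference was −5.26, −2.47 and −4.82 percentage points, with a mean of −4.18 ± 1.5 (SD, n = 3; exact two-sided sign-flip permutation p = 0.25, the smallest possible). The size and direction varied with the peaks kept: the mean was 0.187 percentage points with a −log10 q of 5 or more, −12.8 with a fold of 5 or more and −5.07 with equally long lists. Few chromosome 8 peaks were left there: clone 3 kept 9 with the −log10 q limit and 1 with the fold limit. Clone 2 kept 9 with equally long lists. Gene-end windows cover 1.84% of chromosome 8 and 2.42% of the other chromosomes. Relative to that sequence, gene-end summits were 24.9, 11.2 and 22.9-fold over-represented on chromosome 8 in clones 1, 2 and 3, and 21.1, 9.52 and 19.3-fold on the other chromosomes.

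The remaining summits lay at ends of long non-coding genes alone (6.97, 8.33 and 4.0% in clones 1, 2 and 3), within gene bodies (32.0, 46.1 and 30.0%) and between genes (15.3, 25 and 24%). Clone 2 thus had its largest class in gene bodies, both on chromosome 8 and on the other chromosomes, where gene bodies held 44.4% of its summits. Clone 2 was low on chromosome 8 in every class. Its peaks were 0.152 times those of clone 1 at gene ends, 0.405 at ends of long non-coding genes, 0.487 in gene bodies and 0.554 between genes. The same ratios on the other chromosomes were 0.820, 1.59, 2.81 and 3.36. The ratio on chromosome 8 was therefore 0.186, 0.254, 0.173 and 0.165 times that on the other chromosomes in these 4 classes, a similar deficit at gene ends and away from them.

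Peaks of clone 2 were narrow on chromosome 8, as they were throughout its list. The median width on chromosome 8 was 249 bp in clone 1 (quartiles 166 and 408, longest 1613), 87.5 bp in clone 2 (73 and 133, longest 657) and 138 bp in clone 3 (125 and 185, longest 571). On the other chromosomes the medians were 251, 99 and 172 bp. The log2 ratio of chromosome 8 to the rest was −0.01, −0.18 and −0.32 in clones 1, 2 and 3, below 0 in 3 of 3 (mean −0.17 ± 0.15, SD, n = 3; exact two-sided sign-flip permutation p = 0.25, the smallest possible). Without clone 3 the mean was −0.095. This direction turned with peaks of a fold of 5 or more (0.02) and with equally long lists (0.16). The first of these settings left 1 clone 3 peak on chromosome 8, and the second left 9 clone 2 peaks. Gene-end peaks were the widest class in clone 1, at 340 bp against 198 bp in gene bodies, whereas in clone 2 the medians were 87.0 and 91.5 bp. More than 1 summit was listed for 25.5, 8.33 and 12% of the chromosome 8 peaks of clones 1, 2 and 3, up to 7 summits in clone 1.

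**Figure D3:**
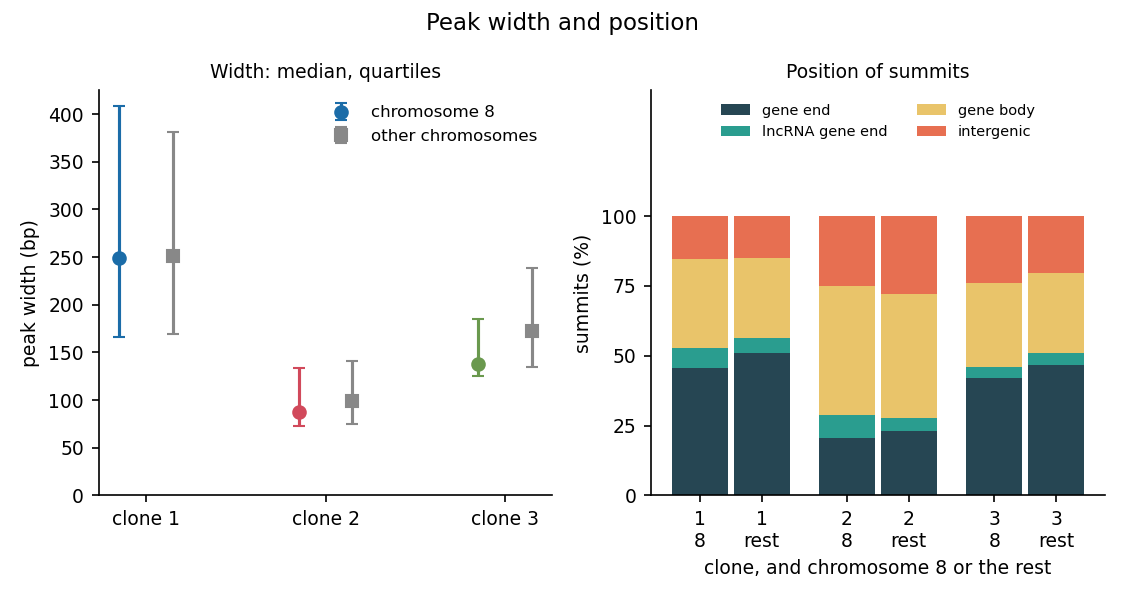
Left, peak width in bp (point, median; bars, lower and upper quartile) on chromosome 8 and on the other chromosomes in ΔNSPs clones 1, 2 and 3; right, the share of summits (%) in 4 position classes. Median widths on chromosome 8 are 249, 87.5 and 138 bp, and the gene-end share is lower on chromosome 8 than on the rest in each clone.

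Median fold enrichments were lower on chromosome 8 in the full lists, but the size of the difference varied among shorter lists. The median fold was 3.29, 3.53 and 3.13 on chromosome 8 and 3.55, 4.18 and 3.35 on the other chromosomes in clones 1, 2 and 3, and in clone 2 chromosome 8 had the lowest median of the 23. The log2 ratio was −0.11, −0.24 and −0.10 (mean −0.15 ± 0.08, SD, n = 3; exact two-sided sign-flip permutation p = 0.25, the smallest possible). The mean log2 ratio was −0.0034 among peaks with a fold of 5 or more and −0.0074 with equally long lists, with an exact permutation p = 1 for each. Peaks with a fold of 5 or more made up 6.80, 11.3 and 2.00% of the chromosome 8 peaks of clones 1, 2 and 3, and 9.36, 26.4 and 7.86% of the peaks elsewhere. The implied background under the peaks was higher on chromosome 8 than elsewhere in clones 1 and 2, with medians of 7.60 and 5.52 reads against 5.85 and 3.35 reads, and alike in clone 3, with 7.23 against 7.19 reads. In clone 2 the background was the highest of the 23 chromosomes and in clone 1 the second highest. Peaks with a pile-up under 20 reads made up 38.7% of the clone 2 peaks on chromosome 8 and 54.8% of those elsewhere. The part of the background in the low peak number of clone 2 was not tested. The weakest members had a −log10 q of 2.00, 2.00 and 2.03 in clones 1, 2 and 3, at the limit of the lists, and 13.9, 21.1 and 30.0% of members were below 2.5. Sites just outside the limit are not in the lists.

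Few clone 1 sites on chromosome 8 were also called in clone 2. Of the 603 clone 1 peaks, 81 (13.4%, exact Clopper-Pearson 95% interval 10.8 to 16.4) overlapped a clone 2 peak by at least 1 bp, against 46.3% on the other chromosomes together and 24.5% on X, the next lowest. With clone 3 the overlap was 5.31%, against 10.6% elsewhere. In the other direction, 83 of the 204 clone 2 peaks on chromosome 8 (40.7%, 33.9 to 47.8) overlapped a clone 1 peak, against 27.3% elsewhere. The small number of clone 2 peaks on chromosome 8 itself limits the share of clone 1 peaks that can be overlapped. The overlap of clone 3 peaks with clone 2 depends on that small number too, and is not separate from it. The 50 clone 3 peaks were compared with the 2 larger lists. Of them, 33 (66.0%, 51.2 to 78.8) overlapped a clone 1 peak and 10 (20%, 10.0 to 33.7) a clone 2 peak, whereas elsewhere 68.0 and 66.9% of clone 3 peaks did. Chromosome 8 was the lowest of 23 for the overlap of clone 3 peaks with clone 2, where the next lowest was 34.4% on chromosome 5, and the tenth lowest for the overlap with clone 1. With 1 library per clone there is no test of this difference over samples, and the intervals cover counting error only.

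The overlap with clone 2 was low among strong clone 1 peaks as well as weak ones. The clone 1 list was divided by −log10 q into 4 groups of like size. In the highest group, with a −log10 q of 7.03 or more, 30 of 157 peaks on chromosome 8 (19.1%) had a clone 2 peak, against 67.6% on the other chromosomes. In the lowest group the shares were 6.41% and 30.5%. By position, 11.6% of clone 1 gene-end peaks on chromosome 8 were overlapped in clone 2, against 48.4% elsewhere, and 14.5% of gene-body peaks, against 45.4%.

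**Figure D4:**
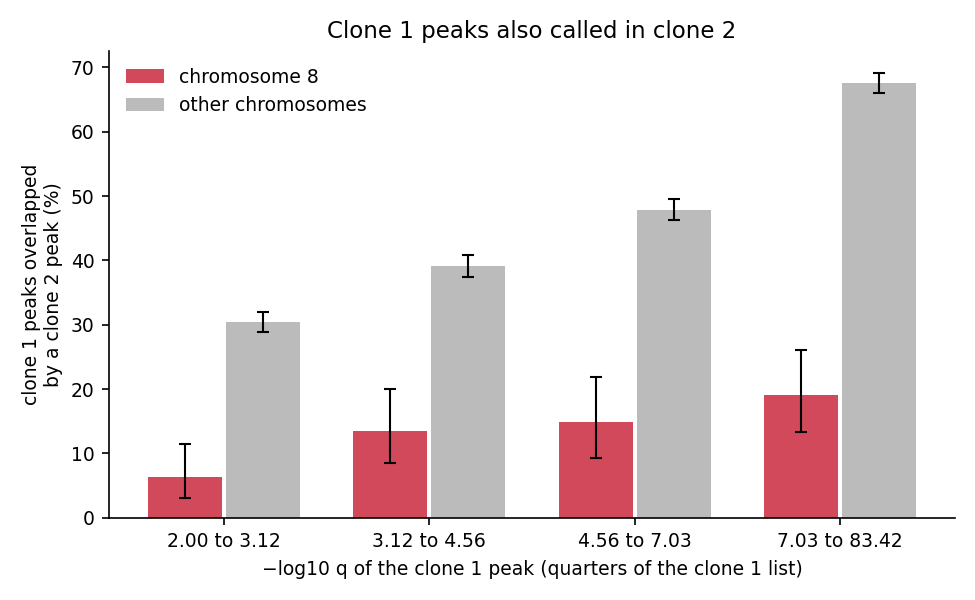
Share (%) of ΔNSPs clone 1 peaks overlapped by a ΔNSPs clone 2 peak on chromosome 8 and on the other chromosomes, in 4 groups of clone 1 peaks from low to high −log10 q; error bars are 95% intervals of the share (Clopper-Pearson), for counting error alone. The share rises with the −log10 q in both sets, to 19.1% on chromosome 8 and 67.6% elsewhere.

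Where clones 1 and 2 did share a site, the pile-up was mostly lower in clone 2 than in clone 1. Over the 83 clone 2 peaks on chromosome 8 that overlapped a clone 1 peak, the median ratio of pile-ups, clone 2 over clone 1, was 0.800. It was the lowest of the 23 chromosomes, the others ranging from 0.855 on chromosome 4 to 1.10 on chromosome 15. The quartiles on chromosome 8 were 0.607 and 1.05, so the pile-up was not lower at every site. The ratio of the backgrounds at the same sites was 0.752, against 0.743 to 0.825 on the others. For clone 3 over clone 1 the pile-up ratio was 0.781 over 33 sites, the second lowest, against a median of 0.831 on the others. For clone 3 over clone 2 it was 0.988 over 10 sites, against a median of 0.948 on the others. Only sites called in both clones of a pair enter these ratios.

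Merging the lists gave 741 regions on chromosome 8. Of these, 503 (67.9%) were called in clone 1 alone, 120 (16.2%) in clone 2 alone and 16 in clone 3 alone. On the other chromosomes clone 1 alone had 22.2% and clone 2 alone 55.3% of the regions. At least 2 clones and no control line shared 101 regions (13.6%, against 20.9% of all regions of the 6 lists), and all 3 clones shared 13 (1.75%, against 3.82%). Peaks found in clone 2 alone were seldom at gene ends, 8 of 120 (6.67%), and 33.3% were intergenic; the 84 shared ones were at gene ends in 40.5%. In clone 3, none of the 16 unshared peaks and 21 of the 34 shared ones lay at a gene end. In clone 1 the shares were alike, 46.1% of 503 unshared and 44.0% of 100 shared peaks.

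Of the 715 protein-coding genes of chromosome 8, 288 (40.3%) had a gene-end peak in clone 1, 50 (6.99%) in clone 2 and 25 (3.50%) in clone 3, against 39.1, 29.6 and 6.55% of all 19974 protein-coding genes. The interval for clone 2 was 5.23 to 9.12% (exact Clopper-Pearson, 95%). Control line 1 had such a peak at 1 gene, and control lines 2 and 3 at none. In at least 2 clones and no control line, 59 genes (8.25%) had a gene-end peak, against 23.3% of all genes, and 12 (1.68%) had it in all 3 clones, against 5.4%. These counts rest on clones 1 and 2: without clone 1, 12 genes and 10 regions were called in both remaining clones, and without clone 2, 25 genes and 32 regions. A peak in clone 1 alone was found at 229 genes (32.0%, against 15.5% on the other chromosomes). Clones 1 and 2 alone shared 34 genes (4.76%, against 17.3%), and clones 1 and 3 alone shared 13 (1.82%, against 0.768%). On chromosome 8, clones 2 and 3 had no gene in common that clone 1 lacked. The 4 genes of clone 2 alone, named here after their values were seen, were PSD3, IKBKB, LOC100129098 and MTDH, with folds of 3.92, 4.14, 3.04 and 2.59. IKBKB encodes a kinase that releases NF-kB from its inhibitors.

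The 12 genes called at an end in each of the 3 clones had a fold of 2.18 to 6.25 in clone 1, 2.04 to 5.05 in clone 2 and 1.68 to 4.22 in clone 3, with medians of 3.12, 3.09 and 2.73. The first by rank of −log10 q were CDCA2, whose product targets protein phosphatase 1 to chromosomes at the end of mitosis, and its neighbour KCTD9. They share a peak between them. It lay at chr8:25458448-25458901 in clone 1, chr8:25458395-25458659 in clone 2 and chr8:25458557-25458833 in clone 3. Its pile-up was 91, 118 and 111 reads and its fold 3.15, 3.09 and 1.94 in clones 1, 2 and 3. So clones 2 and 3 had the higher pile-ups there, but the background in clone 3, 56.6 reads, was the highest of the 3.

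VCPIP1, a deubiquitinase of Golgi reassembly, and the read-through gene C8orf44-SGK3 shared the next peak, at a fold of 2.18, 3.15 and 1.80, with pile-ups of 120, 107 and 82 reads in clones 1, 2 and 3. ELOC, elongin C of several ubiquitin ligases, had folds of 2.61, 2.31 and 1.68 and pile-ups of 146, 87 and 90 reads. These 2 sites had the highest pile-ups of clone 1 among the 12 genes, and folds below its chromosome median of 3.29, since their backgrounds were 54.4 and 55.4 reads.

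BNIP3L, a receptor that marks mitochondria for autophagy, had a fold of 3.88 in clone 1, 3.09 in clone 2 and 4.22 in clone 3, its highest. Its peak was 670, 67 and 571 bp wide in clones 1, 2 and 3, the widest of clone 3 on the chromosome. RRM2B, a ribonucleotide reductase subunit induced by p53, had folds of 2.66, 2.04 and 2.84, and its clone 2 and clone 3 peaks did not overlap each other. THAP1, a zinc finger transcription factor, had folds of 3.09, 3.60 and 2.89, again with peaks of clones 2 and 3 that lay apart.

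The other genes with a peak in all 3 clones lay in the last bin. DGAT1, which makes triglycerides in the final step of their synthesis, had a fold of 4.55 in clone 1, 3.34 in clone 2 and 2.63 in clone 3, and widths of 805, 190 and 198 bp in that order. FBXL6, an F-box protein, had folds of 6.25, 5.05 and 3.32, the highest of the 12 in clones 1 and 2. Its clone 2 peak, at chr8:144355681-144355750, lay at the other end of the gene from those of clones 1 and 3, so it is a separate site. The FBXL6 peaks of clones 1 and 3 were also counted for SLC52A2, a riboflavin transporter. PUF60, a splicing factor, and its neighbour NRBP2 shared their peaks in clones 2 and 3 (folds 2.49 and 2.85). In clone 1 the best peak had a fold of 2.83 for PUF60 and 5.67 for NRBP2. That clone 1 peak of NRBP2 lay at the other end of the gene from its peaks in clones 2 and 3. Of the 12 genes, 7 had peaks with a stretch common to all 3 clones.

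**Figure D5:**
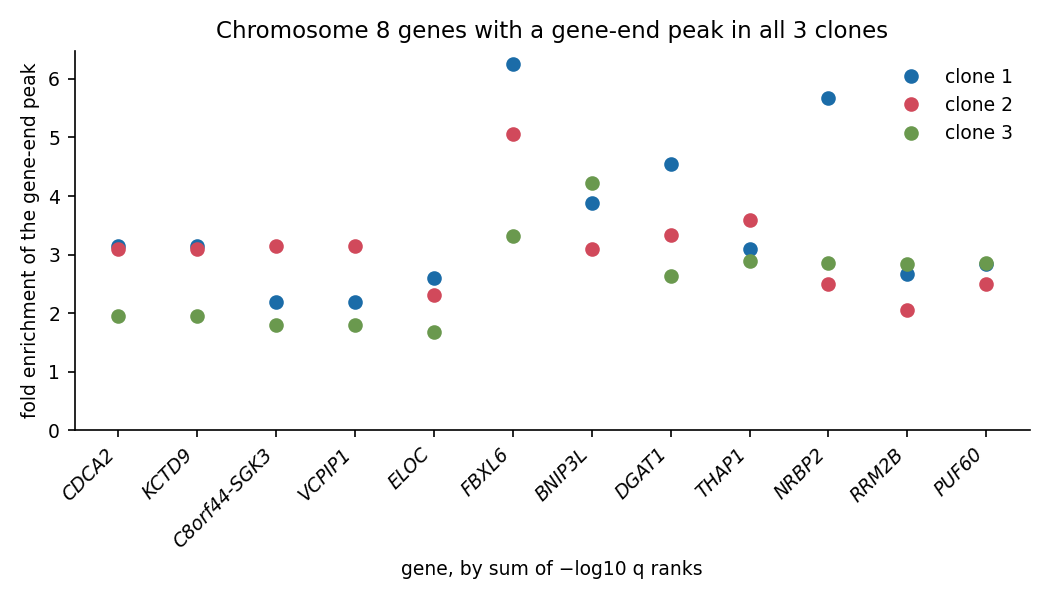
Fold enrichment (vertical axis, the authors' value at the summit) of the gene-end peak in ΔNSPs clones 1, 2 and 3 for the 12 protein-coding genes of chromosome 8 that have one in each clone; each point is 1 library. FBXL6 has the highest fold in clones 1 and 2 (6.25 and 5.05) and BNIP3L in clone 3 (4.22). The points of a gene need not come from the same site: in FBXL6 and NRBP2 the peaks of clones 1 and 2 lie at opposite gene ends.

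Away from gene ends, 5 of the 13 regions called in all 3 clones lay inside genes or between them. They were in PLEC, which encodes the cytoskeletal linker plectin (folds 3.45, 3.22 and 3.04 in clones 1, 2 and 3), in TSNARE1 (2.49, 3.60 and 3.14), in SLC45A4 (3.29, 3.60 and 2.17), 8765 bp from DENND3 (3.01, 2.81 and 2.93) and 59650 bp from ZNF706, within a long non-coding gene (2.41, 3.11 and 2.63). The TSNARE1 peak of clone 3 had the highest −log10 q of that clone on the chromosome, 9.32, with a pile-up of 62 reads.

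The peaks with the highest folds were not the same in the 3 clones. In clone 1 they were at ASH2L, a core subunit of histone H3 lysine 4 methyltransferase complexes (fold 7.46, pile-up 60 reads, chr8:38105303-38105836), at POLR3D, a subunit of RNA polymerase III (7.23), and inside PARP10, an ADP-ribosyltransferase (6.79). The first and second of these were called in clone 3 as well, with folds of 2.58 and 3.60, and not in clone 2. In clone 2 the highest fold was 11.3, with a −log10 q of 32.6 and a pile-up of 48 reads, in an intergenic peak at chr8:42665874-42666069, 31378 bp from CHRNB3, a nicotinic receptor subunit. It was called in neither other clone. The next were inside MYOM2, a sarcomere protein (6.74), and inside DOCK5, an activator of Rac (6.61), the second of which was also called in clone 3 with a fold of 2.64. In clone 3 they lay 59833 bp from PDP1 (5.45), inside AGO2, the slicing enzyme of small RNA silencing (4.79), and 343371 bp from TOX (4.78), none of them shared. The widest peaks were 1613 bp at SLC33A2 in clone 1 and 657 bp, 38866 bp from TMEM64, in clone 2.

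Gene groups of chromosome 8 were read against the whole chromosome, where 40.3% of genes had a gene-end peak in clone 1 and 8.25% in at least 2 clones. Genome maintenance and replication genes had 23, 6 and 3 of 29 members with a gene-end peak in clones 1, 2 and 3, and 7 (24.1%) in at least 2. They included GINS4, part of the replicative helicase (folds 4.82 and 3.86 in clones 1 and 2). POLR3D, called in clones 1 and 3, was counted too, although it encodes a subunit of RNA polymerase III. This list therefore also holds genes of other function. RAD21, the cohesin subunit (fold 4.27), NBN, of the double-strand break sensor (3.54), and MCM4 and PRKDC, which share a peak (3.28), were called in clone 1 alone. CHMP4C and CHMP7, of the ESCRT machinery, had none.

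A list of translation and ribosome genes, which also holds some genes of other function, had 17, 2 and 1 of 20 members with a gene-end peak in clones 1, 2 and 3, and 3 (15%) in at least 2 clones. RPL8 had folds of 4.63 and 2.40 and PABPC1, the poly(A)-binding protein, of 3.39 and 2.32, both in clones 1 and 2, and MTFR1, a regulator of mitochondrial fission and not a translation gene, had 2.81 and 2.08 in clones 1 and 3. RPL7, whose peak is shared with RDH10, had a fold of 4.87 in clone 1 alone. EIF3E, a translation initiation factor subunit, and ESRP1, a splicing regulator, had none in any clone. Respiratory chain and mitochondrial genes had 12, 2 and 0 of 19, with SLC25A32 (3.87 and 2.34) and SLC25A37, the mitochondrial iron importer mitoferrin 1 (2.95 and 2.44), in clones 1 and 2. NDUFAF6 and VDAC3 were called in clone 1 alone (3.17 and 4.57). COX6C was called in none, nor was FDFT1, which is on this list but is not a mitochondrial gene.

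Myeloid, signalling and leukaemia-associated genes had 21, 4 and 1 of 35 members with a gene-end peak in clones 1, 2 and 3, 3 of them (8.57%) in at least 2 clones. Besides BNIP3L these were MAF1, a repressor of RNA polymerase III (folds 3.85 and 2.46 in clones 1 and 2), and EGR3, an immediate early transcription factor (2.80 and 4.25). HSF1, the heat shock regulator, had a fold of 4.85 in clone 1, in a peak shared with BOP1. MYC (3.31), LYN, a Src family kinase of myeloid cells (5.75), and CTSB, cathepsin B of lysosomes (4.09), were called in clone 1 alone. CEBPD and ARHGEF10 had no gene-end peak in any clone. Zinc finger and homeobox genes had 13, 1 and 0 of 26, the shared one being ZNF34 with folds of 3.89 and 3.80 in clones 1 and 2. ZNF706, ZNF250 and ZNF696 were called in clone 1 alone, and ZBTB10 and ZC2HC1A in none.

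Gene families that serve other tissues or cell states had few gene-end peaks in clone 1. Of 24 defensin genes, which include DEFA1 and DEFA1B of neutrophil granules, none had a gene-end peak in any library. Several defensin genes are near-identical copies, where reads may map to more than 1 place. Of 14 LY6 and uPAR family genes and neighbours, 2, 1 and 1 had such a peak in clones 1, 2 and 3, namely THEM6 (folds 4.64 and 3.01 in clones 1 and 3) and PSCA (2.73 and 4.55 in clones 1 and 2); GML and GPIHBP1 had none. Neuronal and endocrine genes had 5, 1 and 0 of 34, with NRG1, a growth factor, called in clones 1 and 2 (3.92 and 3.51) at separate sites, and CRH, NKAIN3 and KCNB2 in clone 1. ADCY8 and ADRA1A had none. Genes of liver, lung, adrenal and other tissues had 3, 1 and 0 of 32, with SFTPC, through a peak also counted for BMP1, in clones 1 and 2 (3.36 and 3.54), and SLC30A8 and FABP5 in clone 1. ADAM2 and ADAM28 had none. In at least 2 clones, 2 of the 14 LY6 and uPAR family genes and neighbours (14.3%) had such a peak, above the 8.25% of the whole chromosome. The share was 2.94% for neuronal and endocrine genes, 3.13% for genes of other tissues and 0% for defensin genes.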

How the data were processed

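The analysis started from the peak lists the authors deposited, 1 per library. The submitters' processing notes name Bowtie2, MACS2, Picard and FastQC and the build GRCh38. They give no versions here, and neither settings nor an adjustment for the transposase cut are stated. Per the values the authors deposited, each summit has a fold enrichment (a ratio over local background), −log10 p, −log10 q and a score, 10 times the −log10 q cut to a whole number, which was not used. Groups and replicate numbers came from the titles; the labels name no batch.

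Lines with the same interval were merged to 1 peak, represented by the summit of highest −log10 q. Pile-ups and backgrounds were solved from fold and −log10 p, which gave a whole pile-up for 100% of peaks within 0.001 on the −log10 p scale. Gene positions came from RefSeq (GRCh38.p14), without strand; chromosome length is the highest gene or peak coordinate. No sequence is shown. Exact permutation tests ran over libraries (smallest p 0.1) or clones (smallest p 0.25). A p at its smallest value shows only that the groups did not overlap, or that all clones had the same direction. It does not measure the spread. Functions were tested on simulated data. Software was Python 3.11.15, pandas 2.3.3 and scipy 1.17.1. Members, gene lists and tests were chosen with earlier results of these data known. Genes were named by rule: those with a control peak, those called in all 3 clones, those nearest the 3 peaks of highest fold and the widest peak per clone, those beside the longest empty stretches, and up to 4 called and 2 uncalled members per list. RAD21, NBN, MCM4, PRKDC, MYC, LYN and CTSB were added on top of the rule after their values were seen.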

Additional observations from a re-analysis of the deposited data

How the results depend on the processing

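Among 91 alternative values, 76 were the same by the rule for their kind. The rule was the same direction for differences and a size within 1.5 times for counts and ratios. For the bin with most peaks it was an overlap with the main bin. A further 12 counts or ratios moved by more and 3 values reversed, and the cause was not tested. With so few libraries no permutation test could reach significance in any setting, so a tested difference could only keep or reverse its direction. Keeping the direction did not mean keeping the size. Some settings left few chromosome 8 peaks: 1 of clone 3 with a fold of 5 or more, and 9 of clone 2 with equally long lists. With a fold of 5 or more, the differences in peaks, length and genes between clones and control lines were 1.10, 1.43 and 0.613 on the log10 scales, the gene-end difference −12.8 percentage points, the log2 fold ratio −0.0034 and the log2 ratio of peaks per Mb −2.52. The log2 fold ratio was −0.0074 with equally long lists. The gene-end difference was −2.30 with every line counted and −2.41 with ends of long non-coding genes added, the second chosen after seeing the data. The gene-end difference reversed to 0.187 percentage points at −log10 q values of at least 5, and the log2 width ratio to 0.0202 at folds of at least 5 and 0.163 with equally long lists. Regions in at least 2 clones fell to 21 (−log10 q of 5 or more), 0 (fold of 5 or more) and 19 (equally long lists), and genes to 23, 1 (FBXL6) and 21. The FBXL6 peaks of clones 1 and 2 lay at opposite ends of the gene. Leaving out 1 clone gave 10 to 81 regions and 12 to 46 genes, the lowest without clone 1. Clone 2 over clone 1 peaks on chromosome 8 was 0.338, 0.561 with a fold of 5 or more and 0.0857 with equally long lists, both chosen after seeing the data, where the other chromosomes gave 1.81, 5.12 and 1.05. In the labels, same-numbered libraries shared only a number. The correlations of their deviations were −0.072, −0.211 and −0.146, but the control lists are too short for these to show a pairing or its absence. With the replicate block the differences in peaks, length and genes stayed 2.17, 2.42 and 1.76 on the log10 scales. The permutation p was 0.25 for each, the smallest possible. Depth is unknown, so a site without a peak is not shown to be closed.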

Other observations

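In clone 2, non-coding genes of chromosome 8 had fewer peaks at their ends than those of other chromosomes. Of 887 long non-coding genes, 106, 25 and 9 had a peak within 1000 bp of an end in clones 1, 2 and 3 (12, 2.82 and 1.01%), against 12.1, 11.7 and 1.75% on the other chromosomes. Of 90 microRNA genes, 8, 3 and 2 had such a peak in clones 1, 2 and 3 (8.89, 3.33 and 2.22%), against 7.46, 7.68 and 1.87% elsewhere. For microRNA genes the shares in clones 1 and 3 were thus slightly higher on chromosome 8, with counts too small to tell them from the other chromosomes.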
